A study of Mus musculus with 34 samples.

Results

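Hearts of aged mice were compared between a control diet and a high-fat, high-calorie diet (HFCD) that was broken at intervals by a fasting-mimicking diet (FMD), a combination labelled HFCD+FMD. The comparison took every heart library of both groups with a column in the deposited count table. These were 4 HFCD+FMD and 5 control libraries, 9 of the 27 libraries with columns and of the 34 in the labels. All mice were C57BL/6J, and those of these groups were 20 or 21 months old. Levels in 5 hearts of a further group, on uninterrupted HFCD, are given beside the comparison. Those mice were 20 to 22 months old, and HFCD replicate 5 was the one of 22 months. The control diet drew 10% of its calories from fat and the HFCD 60%. In the HFCD+FMD group a fasting-mimicking diet of 5 days replaced the HFCD once every 4 weeks, for 11 cycles. In the later cycles 2 days of control diet came between it and the return to HFCD. Hearts were taken 4 days after the last fasting-mimicking diet ended, so the comparison holds the high-fat diet, the fasting cycles and refeeding together. The whole heart was the labelled tissue. RNA was depleted of ribosomal RNA and sequenced, and the values are counts per gene. One labelled control and 1 labelled HFCD+FMD heart were not analysed here. The replicate numbers below only name libraries. The p-values measure the spread between these libraries.

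Heart muscle draws most of its energy from fatty acids and turns to glucose, ketone bodies or lactate as supply changes. After a meal insulin moves glucose transporters to the surface of the muscle cell, while fasting raises pyruvate dehydrogenase kinase and fatty acid use. Iron is taken up through the transferrin receptor and is needed for heme and for the iron-sulfur clusters of the respiratory chain.

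The labelled tissue was checked against its markers. All 17 heart muscle markers on the list were tested, and their summed level was 56541 to 90109 CPM in controls and 64553 to 71969 CPM in HFCD+FMD hearts, where CPM is the count scaled to a common library size after TMM normalisation (a correction for library composition). None of the 17 was called. Library totals ran from 16848195 to 33180337 counts in controls and from 17050559 to 47859170 in HFCD+FMD hearts.

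Features of 2 kinds set libraries apart before any gene is considered. Mitochondrially encoded genes took 32.6%, 25.1%, 21.8%, 27.6% and 28.98% of the counts in control replicates 2 to 6, and 30.1%, 29.5%, 62.0% and 61.4% in HFCD+FMD replicates 1, 2, 3 and 5. Of 13 such genes on the list 7 were in the count table. The share leaves out those that were not, among them mt-Co2, mt-Co3 and mt-Atp6. The mean share was 27.2% ± 4.06 (SD, n = 5) and 45.8% ± 18.4 (SD, n = 4), with p = 0.0397 in a two-sided exact permutation test. HFCD+FMD replicates 3 and 5 were high and the other 2 lay inside the control range. Leaving out any 1 of control replicates 3 to 6 or of HFCD+FMD replicates 3 and 5 gave an exact permutation p of 0.0893 to 0.143. The second feature is a division of the heart libraries into 3 sets, which the deposited batch-removed log2 values show because a different term per gene was taken out of each set. Control replicates 2, 3 and 5 form set A. In set B are HFCD+FMD replicate 1 and control replicates 4 and 6. HFCD+FMD replicates 2, 3 and 5 belong to set C. The labels do not say what the sets are. Diet and set cannot be told apart in this comparison except within set B, which has 2 control libraries and 1 HFCD+FMD library. The difference within set B is therefore given beside the results, as a value without a test.

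Across 13123 genes tested with edgeR's quasi-likelihood test, 137 were higher in HFCD+FMD hearts at an adjusted p below 0.05, which is 1.04% of those tested, and 35 were lower, which is 0.267%. Of the 172 called genes, 130 differed by more than 2-fold, 112 upwards and 18 downwards. The smallest adjusted p was 0.016. Without adjustment 2983 genes had p below 0.05. All 4 HFCD+FMD values lay above all 5 control values for 570 genes, 4.34% of those tested, and below them for 587 genes, 4.47%. The median log2 fold change over all genes was -0.01.

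The calls divided by the kind of gene. Among 12340 protein-coding genes 56 were higher and 34 lower. Among 198 pseudogenes 79 were higher, 39.9%, and 0 were lower, while 119 had p above the threshold. With pseudogenes left out of the fit, an alternative chosen after seeing the data, 13 genes were called higher and 6 lower, all 19 among the 172. The count of calls also depended on single libraries. It was 0 in both directions without control replicate 3, without control replicate 6, without HFCD+FMD replicate 3 and without HFCD+FMD replicate 5. It was 1 higher and 1 lower without control replicate 4, 1 higher and 0 lower without control replicate 5, 33 and 4 without HFCD+FMD replicate 2, and 63 and 32 without control replicate 2. Without HFCD+FMD replicate 1 it was 507 and 326. Every call named below is therefore lost in the first 4 of these fits. Without control replicate 3 and without HFCD+FMD replicate 3, 2616 and 1671 genes still had an unadjusted p below 0.05. The plot of calls under each setting shows these counts side by side.

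**Figure D1:**
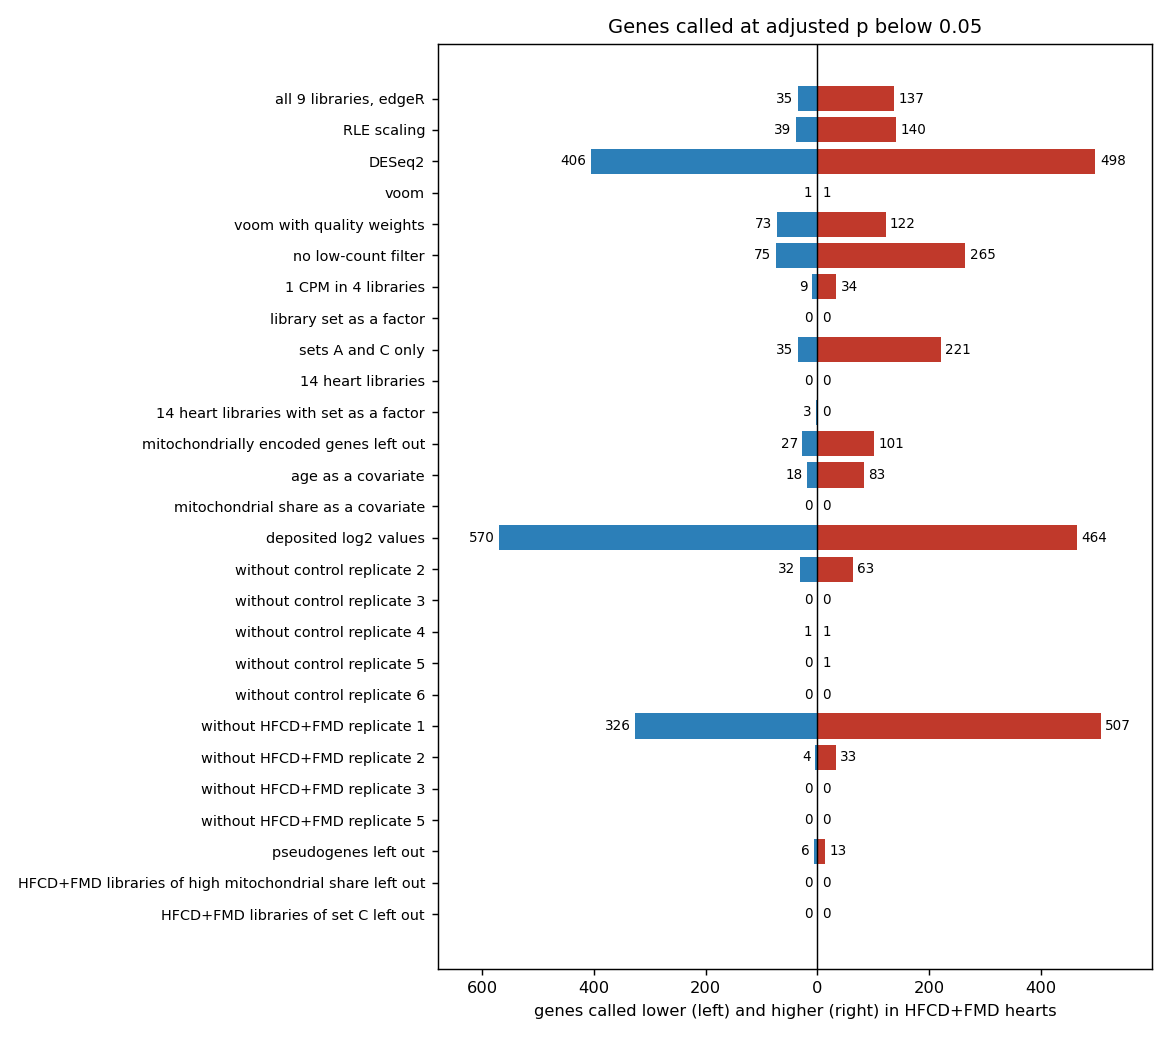
Number of genes called lower (blue, left) and higher (red, right) in HFCD+FMD hearts at an adjusted p below 0.05, for the fit of all 9 libraries and for each alternative setting. The counts run from 0 in both directions to 507 higher and 570 lower.

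Tfrc, the transferrin receptor, through which cells import iron, had the smallest p-value of all genes tested. Its level was 12.0, 25.6, 38.3, 42.8 and 24.8 CPM in control replicates 2 to 6, and 131, 184, 167 and 193 CPM in HFCD+FMD replicates 1, 2, 3 and 5. Every HFCD+FMD heart lay far above the highest control. The mean rose from 28.7 ± 12.2 (SD, n = 5) to 169 ± 27.3 CPM (SD, n = 4), a log2 fold change of 2.56 with SE 0.30 and adjusted p = 0.016 in edgeR. Within set B the log2 difference was 2.09. In the 9 fits that left out 1 library the log2 fold change stayed between 2.36 and 2.75 and the call was kept in 5, with an adjusted p of up to 0.0655 in the other 4. It was also lost with the library set as a factor, where the log2 difference rests on set B. The set C heart from the uninterrupted HFCD group, HFCD replicate 5, had 7.71 CPM, below every control, and the other 4 HFCD hearts had 45.9 to 88.0 CPM.

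Alas1, which makes the first and rate-limiting step of heme synthesis in non-erythroid cells, rose as well. It lies outside the rule for named genes and was chosen after its values were seen. The level was 139, 139, 182, 145 and 166 CPM in control replicates 2 to 6, and 237, 300, 356 and 328 CPM in HFCD+FMD replicates 1, 2, 3 and 5, so the groups did not overlap. The log2 fold change was 0.99 with SE 0.15 and adjusted p = 0.016 in edgeR, and 0.45 within set B. HFCD hearts lay between 66.3 and 181 CPM, with the lowest value again in HFCD replicate 5. Mme, the membrane peptidase neprilysin, also chosen after its values were seen, had 7.98 to 16.9 CPM in controls and 23.4 to 31.9 CPM in HFCD+FMD hearts. Its adjusted p was 0.0169 in edgeR.

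**Figure D2:**
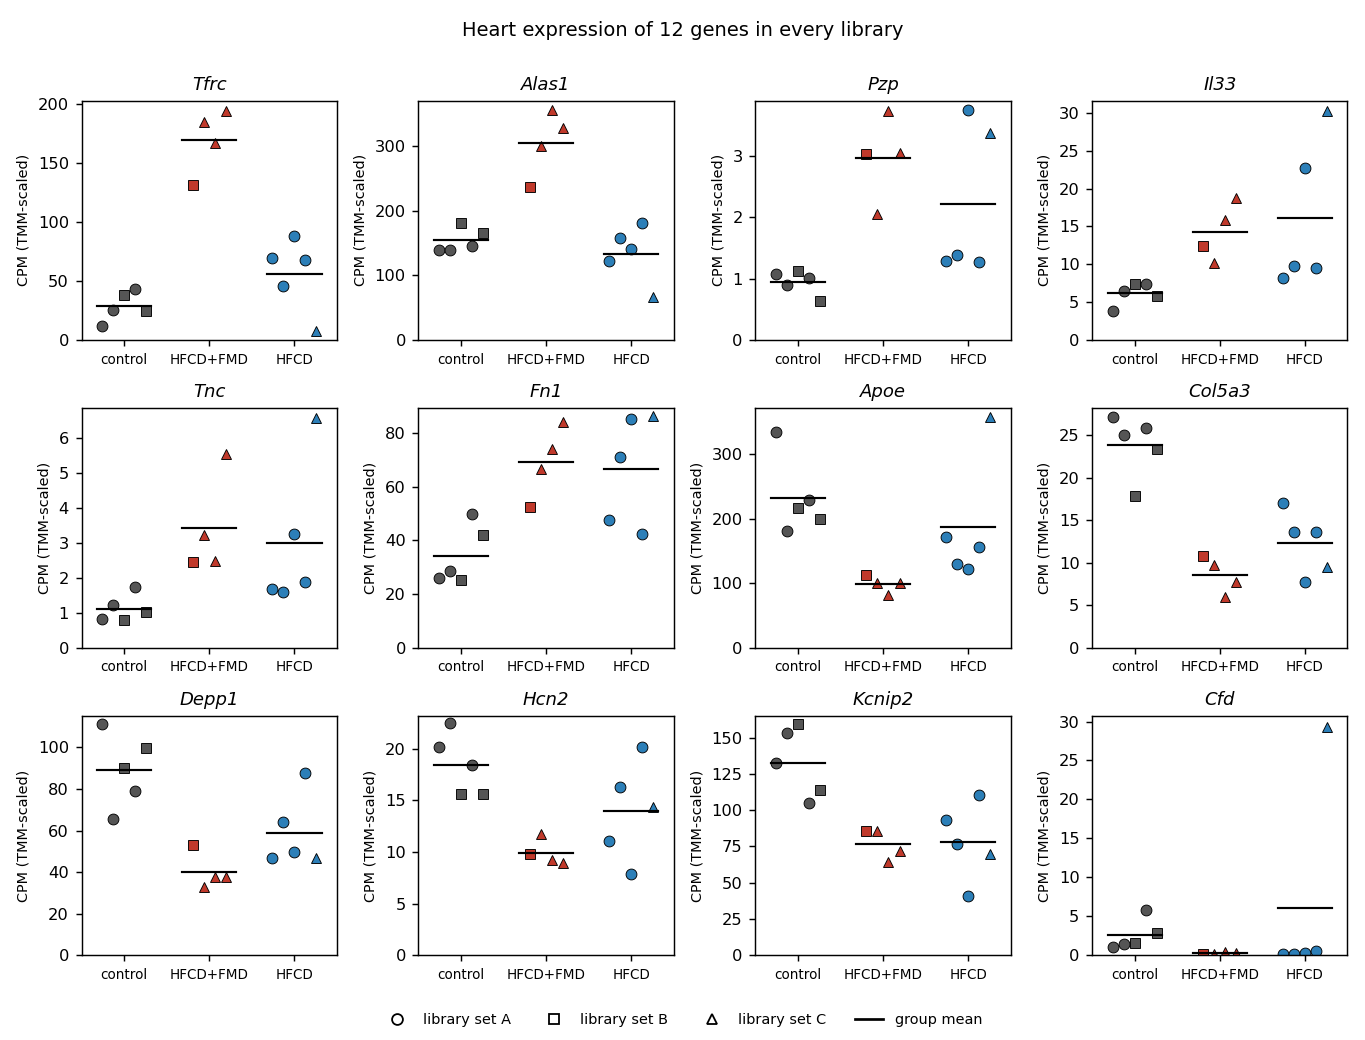
Level of 12 genes in each heart library, in TMM-scaled CPM on linear axes that start at 0; points are libraries, marker shape gives the library set and lines are group means. The 4 HFCD+FMD hearts lie outside the range of the 5 controls in each panel, and HFCD replicate 5 (the blue triangle) has the lowest Tfrc value and the highest Apoe value of its group.

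Genes of the extracellular matrix were the list with 2 called rises. Tnc, encoding the matrix glycoprotein tenascin C, which adult heart muscle makes little of, had 0.805, 1.23, 0.781, 1.72 and 1.01 CPM in control replicates 2 to 6. It had 2.46, 3.23, 2.47 and 5.54 CPM in HFCD+FMD replicates 1, 2, 3 and 5. The groups did not overlap, and the log2 fold change was 1.61 with adjusted p = 0.0342 in edgeR. Fn1, encoding fibronectin, had 24.99 to 49.7 CPM in controls and 52.4 to 83.9 CPM in HFCD+FMD hearts, with the lowest HFCD+FMD heart just above the highest control. Its adjusted p of 0.04995 in edgeR is just under the threshold. Of the 39 genes tested, 2 were called higher and 0 lower, beside 1.04% and 0.267% of all genes. Positive values were found for 25, and the median log2 fold change was 0.19, beside -0.01 over all genes and 0.17 within set B. The genes Col3a1, Col1a2 and Col1a1, of the fibrillar collagens I and III, did not pass the test. Col3a1 had 111 to 152 CPM in controls and 153 to 266 CPM in HFCD+FMD hearts, Col1a2 70.3 to 96.8 and 102 to 131 CPM, and Col1a1 67.2 to 91.9 and 88.2 to 149 CPM, with adjusted p-values of 0.0936, 0.119 and 0.124. Lum, a proteoglycan that binds collagen fibrils, had a log2 value of 0.63 (adjusted p = 0.0525), and Postn, the matricellular protein periostin, 0.99 (adjusted p = 0.125).

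Col5a3, a chain of collagen V, moved the other way. It fell from 27.2, 25.002, 17.8, 25.9 and 23.4 CPM in control replicates 2 to 6 to 10.8, 9.70, 5.93 and 7.78 CPM in HFCD+FMD replicates 1, 2, 3 and 5, with no overlap. The log2 fold change was -1.48 with SE 0.19 and adjusted p = 0.016 in edgeR, and -0.92 within set B. HFCD hearts all lay below every control as well, at 7.68 to 17.1 CPM. Tfrc and Col5a3 were the 2 genes called with limma voom in place of edgeR (adjusted p = 0.0287 and 0.0322).

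Of 21 inflammatory mediators tested 1 was called higher, beside 1.04% of all genes. Il33, a cytokine of the interleukin-1 family held in the nuclei of endothelial cells and fibroblasts, had 3.80 to 7.39 CPM in controls and 10.2 to 18.8 CPM in HFCD+FMD hearts, a log2 fold change of 1.21 with adjusted p = 0.0284 in edgeR. The 2 highest HFCD+FMD values were in replicates 3 and 5, the libraries with the large mitochondrial share. Il33 was not called in the fit without them, where 0 genes were called, and their part was not tested further. Within set B the log2 difference was 0.92. HFCD hearts all lay above every control as well, at 8.12 to 30.3 CPM. Of 29 macrophage markers tested, 0 were called. Cd68, a lysosomal membrane protein of macrophages, had 5.51 to 8.59 CPM in controls and 8.80 to 21.3 CPM in HFCD+FMD hearts, with adjusted p = 0.0724. The macrophage markers together summed to 330 to 516 CPM in controls and 368 to 560 CPM in HFCD+FMD hearts.

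Genes of cell division had mostly positive values. Of 25 tested, 24 had a positive log2 value and 1 a negative one, with a median of 0.45, and 0.17 within set B. Only 1 was called, beside 1.04% of all genes called higher. That gene was Mki67, which marks cells in cycle. It had 3.26, 4.06, 4.39, 4.80 and 4.45 CPM in control replicates 2 to 6, and 5.18, 12.5, 12.8 and 14.3 CPM in HFCD+FMD replicates 1, 2, 3 and 5. HFCD+FMD replicate 1 was thus near the controls and the 3 hearts of set C were high. The log2 fold change was 1.42 with adjusted p = 0.0236 in edgeR, and 0.23 within set B. HFCD replicate 5, the other set C heart, had 2.34 CPM, below every control, whereas HFCD replicates 1 to 4, of set A, had 8.05 to 21.5 CPM. Outside the list, the spindle genes Aspm and Ckap2l and the cell-cycle gene Prr11 rose, with log2 fold changes of 1.64, 1.57 and 1.49 and adjusted p-values of 0.0305, 0.0306 and 0.0342 in edgeR. Their levels were low in every heart, at 0.268 to 0.818 CPM in controls and 0.838 to 2.62 CPM in HFCD+FMD hearts. Tpx2, a spindle assembly factor, had 0.825 to 1.76 and 2.04 to 3.40 CPM and missed the threshold (adjusted p = 0.0568). In bulk tissue, more cells of a type and more RNA per cell cannot be told apart.

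The remaining large rises among named protein-coding genes were at low level. Pzp, a protease inhibitor of the alpha-2-macroglobulin family, had 0.642 to 1.12 CPM in controls and 2.05 to 3.74 CPM in HFCD+FMD hearts (log2 fold change 1.63, adjusted p = 0.016 in edgeR). Olfr1396, annotated as an olfactory receptor, had 0.920 to 2.02 and 3.59 to 7.68 CPM. Slc1a2, a glutamate transporter, had 0.504 to 0.846 and 1.52 to 2.47 CPM. Kcnq5, a voltage-gated potassium channel, had 0.361 to 0.871 and 1.36 to 2.59 CPM, and Cuzd1 had 0.592 to 1.22 and 2.05 to 3.11 CPM. These 5 genes did not overlap between the groups, and each had a value of the same sign within set B, from 0.89 for Cuzd1 to 1.76 for Pzp. In HFCD hearts Pzp (1.27 to 3.75 CPM), Olfr1396 (2.47 to 6.49 CPM) and Slc1a2 (1.33 to 5.83 CPM) lay above every control. Kcnq5 (0.448 to 1.78 CPM) and Cuzd1 (0.558 to 2.10 CPM) overlapped the controls there. Aldh1a2 makes retinoic acid and marks epicardium. It was the 1 gene called of 7 mesothelial and epicardial markers tested, beside 1.04% of all genes called higher. It had 2.38 to 6.17 CPM in controls and 6.70 to 9.84 CPM in HFCD+FMD hearts (adjusted p = 0.0488 in edgeR).

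Apoe was among the genes that fell. Apolipoprotein E carries lipid between cells and is made by macrophages and other cells of the heart. Its level was 335, 180, 216, 228 and 199 CPM in control replicates 2 to 6, and 113, 100, 82.2 and 101 CPM in HFCD+FMD replicates 1, 2, 3 and 5. The highest HFCD+FMD heart lay well below the lowest control. The log2 fold change was -1.23 with SE 0.19 and adjusted p = 0.016 in edgeR, and -0.88 within set B. HFCD hearts had 122 to 357 CPM, with the highest in HFCD replicate 5.

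Adipocyte genes formed the list with the lowest median. Of 11 tested, 2 were called lower and 0 higher, beside 0.267% and 1.04% of all genes. For 6 of the 11, all 4 HFCD+FMD values lay below all 5 controls, beside 4.47% of all genes. The median log2 value was -3.10, and -2.31 within set B. Cfd, the serine protease adipsin, had 1.11, 1.39, 1.61, 5.78 and 2.84 CPM in control replicates 2 to 6, and 0.209, 0.133, 0.403 and 0.238 CPM in HFCD+FMD replicates 1, 2, 3 and 5. Its log2 fold change was -3.48 with adjusted p = 0.0195 in edgeR. Cidec, a protein of the lipid droplet surface, had 0.499 to 3.86 CPM in controls and at most 0.114 CPM in HFCD+FMD hearts (adjusted p = 0.0371 in edgeR). It had no counts in HFCD+FMD replicates 1 and 5, where a count of 0 allows up to 0.157 and 0.102 CPM. The other 4 without overlap were Plin1, Car3, Cyp2e1 and the adipocyte hormone Adipoq, with log2 values of -3.86, -2.68, -3.53 and -3.10 and adjusted p-values of 0.0600, 0.0576, 0.0927 and 0.0661. In each of these 6 genes the highest control was replicate 5. HFCD replicate 5 was far above every control in all of them, with 29.3 CPM of Cfd and 9.77 CPM of Adipoq. Of the other 5 adipocyte genes tested, 4 had positive log2 values. The part of adipose tissue in the dissected hearts was not tested.

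Genes of calcium handling and ion channels were the other list with 2 called falls. Hcn2, a pacemaker channel, had 20.2, 22.4, 15.6, 18.4 and 15.6 CPM in control replicates 2 to 6, and 9.79, 11.8, 9.21 and 8.97 CPM in HFCD+FMD replicates 1, 2, 3 and 5. The groups did not overlap. The log2 fold change was -0.89 with SE 0.16 and adjusted p = 0.0217 in edgeR, and -0.67 within set B. Kcnip2, the accessory subunit of the transient outward potassium channel, had 105 to 159 CPM in controls and 64.6 to 85.5 CPM in HFCD+FMD hearts (log2 fold change -0.79, adjusted p = 0.0402 in edgeR, -0.65 within set B). Of the 31 genes tested 2 were called lower and 0 higher, beside 0.267% and 1.04% of all genes. Values were positive for 17 and negative for 14, with a median of 0.02. Without overlap, 3 lay above and 3 below every control, beside 4.34% and 4.47% of all genes. Casq2, which stores calcium in the sarcoplasmic reticulum, had 659 to 908 and 1094 to 1376 CPM without overlap and missed the threshold (adjusted p = 0.0531). Atp2a2, the calcium pump, and its regulator Pln had log2 values of 0.01 and 0.27 with adjusted p-values of 0.987 and 0.372.

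Several enzymes and stress-response genes fell. Depp1, a target of FOXO transcription factors, had 65.7 to 111 CPM in controls and 32.7 to 52.9 CPM in HFCD+FMD hearts (log2 fold change -1.15, adjusted p = 0.0169 in edgeR). Abat, which breaks down the transmitter GABA, had 13.8 to 40.2 and 9.45 to 11.5 CPM. Cdo1, which starts the breakdown of cysteine, had 2.99 to 7.95 and 1.54 to 2.48 CPM. Gcat, an enzyme of threonine breakdown, had 8.38 to 13.6 and 2.92 to 6.96 CPM. Their adjusted p-values were 0.0243, 0.044 and 0.0436 in edgeR, and no pair of groups overlapped. Chac1 degrades glutathione and is a target of the integrated stress response. It was the 1 gene called of 22 on its list, beside 0.267% of all genes called lower. Its level was 4.35 to 7.90 and 2.42 to 2.88 CPM (adjusted p = 0.0458 in edgeR). On the same list Mthfd2 and Mthfd1l, enzymes of mitochondrial folate metabolism, had log2 values of 1.02 and 1.14 without overlap, each with adjusted p = 0.0584.

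The other named genes that fell included a receptor and proteins that act with receptors, which were not a list of their own. Ramp1, a partner of the receptor for calcitonin gene-related peptide, had 2.57 to 4.59 CPM in controls and 0.883 to 2.46 CPM in HFCD+FMD hearts. Cntfr, the receptor for ciliary neurotrophic factor, had 2.36 to 4.56 and 1.04 to 1.79 CPM, and Rapsn, which anchors acetylcholine receptors, 1.60 to 2.61 and 0.340 to 0.995 CPM. Stum, Tmem82 and Tmem140 had log2 fold changes of -1.59, -1.26 and -1.07. For these 6 genes the adjusted p-values in edgeR lay between 0.0167 for Stum and 0.044 for Ramp1. Dpep1, a dipeptidase on the list of fibroblast markers, had 36.6 to 70.5 and 23.02 to 33.7 CPM (adjusted p = 0.04995 in edgeR). It was the 1 gene called of 19 on that list, beside 0.267% of all genes called lower. Most of the list went the other way, with 13 positive and 6 negative values. The median log2 value was 0.21, and -0.14 within set B. Without overlap, 3 of the 19 lay above and 1 below every control, beside 4.34% and 4.47% of all genes. Cytl1, a secreted protein on the list for valve, airway and thymus, had 8.78 to 13.3 and 2.87 to 5.34 CPM (log2 fold change -1.37, adjusted p = 0.016 in edgeR). The 5 genes tested on that list all had negative values, and their summed level was 18.0 to 48.5 CPM in controls and 7.68 to 13.2 CPM in HFCD+FMD hearts. Of its 18 members 6 were in the count table. Sftpc, Scgb1a1, Rag1 and Foxn1 were among the absent, so these values say little about airway or thymus.

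All 90 called protein-coding genes had the same sign within set B as over the 9 libraries. Of them 86 did not overlap between the groups, beside 4.34% of all genes wholly higher and 4.47% wholly lower. The calls were made from these same libraries, HFCD+FMD replicate 1 among them, so both counts are descriptions that follow in part from the choice. The 90 include the gene copies Aldoart1 and Csl, described below. HFCD replicate 5 shares set C with 3 of the 4 HFCD+FMD hearts, and also the HFCD, but not the fasting cycles. It came from a mouse of 22 months, and 59.8% of its counts were mitochondrially encoded. Set, HFCD, age and this share cannot be told apart in 1 library, and their parts were not tested. Of the 56 protein-coding genes called higher, HFCD replicate 5 lay above every control in 35, below every control in 12 and inside the control range in 9. Of the 34 called lower, it lay below every control in 13, above every control in 12 and inside in 9.

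**Figure D3:**
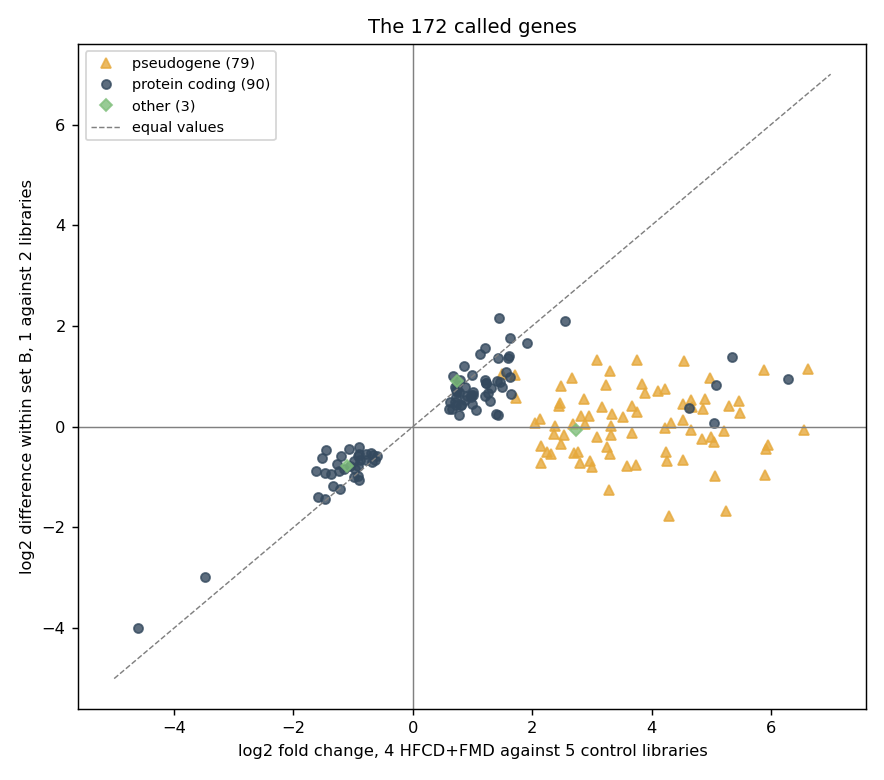
Each of the 172 called genes by its log2 fold change over all 9 libraries (horizontal) and its log2 difference within set B, 1 HFCD+FMD against 2 control libraries (vertical); the dashed line marks equal values. The 90 protein-coding genes lie in the quadrants of equal sign, while the 79 pseudogenes spread around 0 on the vertical axis.

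The 79 called pseudogenes behaved otherwise. Pseudogenes are copies of genes that have lost their function, and processed ones are intronless copies of a messenger RNA. Against the control mean, the median pseudogene of the 79 stood at 14.7-fold, 15.99-fold and 15.7-fold in HFCD+FMD replicates 2, 3 and 5 and at 15.5-fold in HFCD replicate 5, which are the 4 hearts of set C. In HFCD+FMD replicate 1 it stood at 1.01-fold, and in the other HFCD hearts at 0.712-fold to 0.938-fold. HFCD replicate 5 lay above every control in 79 of 79. Pseudogenes took 0.0442% to 0.0590% of the counts in controls and 0.0467% to 0.169% in HFCD+FMD hearts (two-sided exact permutation p = 0.0317). The plot of pseudogene levels shows the division by set.

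The reference sequence shows how close these copies are to their parents. In GENCODE M21 (GRCm38), each of the 79 had a protein-coding transcript of another gene as a match, with a median identity of 99.0%. For the 119 pseudogenes not called, 102 had such a match and the median identity was 96.0%. Of the 77 called pseudogenes whose parent gene was tested, 0 had a parent that was called in either direction, and the median log2 fold change of the parents was -0.02. Parents had a median of 74.8 CPM in controls for the called and 12.4 CPM for the other pseudogenes. Reads from a copy and its parent can be split by the counting, so these values are uncertain.

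Intronless copies annotated as protein coding followed the same division. Aldoart1, a copy of the glycolytic gene Aldoa, lies on chromosome 4 from 72850583 to 72852634 on the minus strand, and Aldoa on chromosome 7 from 126795234 to 126800751. Over 1508 aligned bases their transcripts were 92.7% identical. Csl, a copy of the citrate synthase gene Cs, lies on chromosome 10 from 99757706 to 99759658 and was 91.9% identical to it over 1522 bases. The first 60 coding bases of each pair are given because they carry the differences by which a read can be assigned. Capitals mark the bases that differ between parent and copy.
Aldoa: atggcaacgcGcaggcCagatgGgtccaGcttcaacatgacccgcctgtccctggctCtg
Aldoart1: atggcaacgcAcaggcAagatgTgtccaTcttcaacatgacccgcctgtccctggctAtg
Cs: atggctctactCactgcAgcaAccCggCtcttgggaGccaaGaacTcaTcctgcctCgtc
Csl: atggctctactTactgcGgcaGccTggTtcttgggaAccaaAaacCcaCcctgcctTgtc
The first pair differs at 5 of 60 bases and the second at 10 of 60. For Vcp-rs, a processed pseudogene of Vcp on the X chromosome (99.0% identity over 2421 bases), and for Rpl37rt, a copy of Rpl37 (99.7% over 344 bases), the same stretch holds no difference.

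Aldoart1 had 0.307, 0.361, 0.244, 0.169 and 0.183 CPM in control replicates 2 to 6. It had 0.471 CPM in HFCD+FMD replicate 1 and 22.4, 29.3 and 29.7 CPM in replicates 2, 3 and 5, and HFCD replicate 5 had 24.9 CPM. The 4 hearts of set C, all fed the HFCD with or without fasting cycles, were thus high. Aldoa itself had 1624 to 2549 CPM in controls and 1041 to 1663 CPM in HFCD+FMD hearts (adjusted p = 0.20). Vcp-rs had 0.383 to 1.07 CPM in controls, 1.15 CPM in HFCD+FMD replicate 1 and 11.8 to 17.2 CPM in the others. Csl had 0.0383 to 0.342, 0.262 and 1.60 to 11.0 CPM in the same order. Rpl37rt and Csnk2a3 had a negative value within set B, -0.50 and -0.68, against log2 fold changes of 2.77 and 2.96 over the 9 libraries. The adjusted p-values of these 5 genes in edgeR ran from 0.016 to 0.0458.

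**Figure D4:**
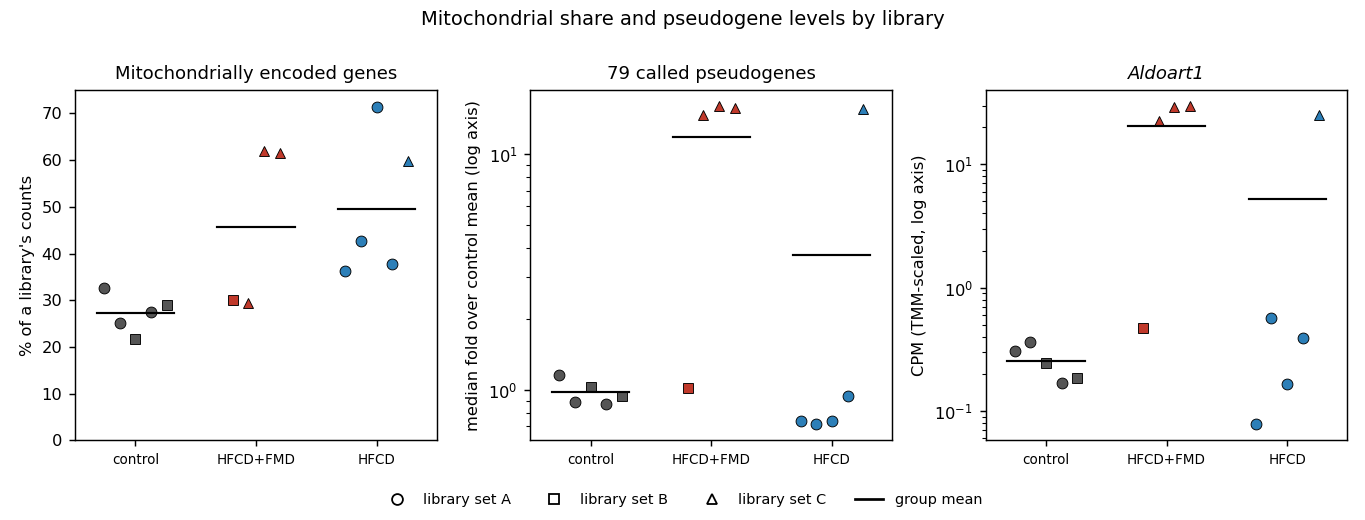
Percent of counts from mitochondrially encoded genes (left, linear axis), median level of the 79 called pseudogenes relative to the control mean (middle, log axis) and level of Aldoart1 (right, log axis) in each heart library; marker shape gives the library set and lines are group means. The 4 set C libraries stand between 14.7-fold and 15.99-fold for the pseudogenes, and HFCD+FMD replicate 1 stands at 1.01-fold.

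Genes of fuel use were largely without calls. Of 25 genes of fatty acid uptake and oxidation tested, 0 were called and the median was 0.06. Cd36, the fatty acid importer, had 1297 to 2089 CPM in controls and 2026 to 2175 CPM in HFCD+FMD hearts, and Cpt1b and Cpt1a, the gatekeepers of mitochondrial fatty acid entry, had log2 values of 0.40 and 0.02 (adjusted p of 0.182, 0.254 and 0.942). Of 22 genes of glucose uptake and glycolysis 0 were called, 20 had negative values and the median was -0.21, and -0.06 within set B. Relative to the control mean, the median gene of the list stood at 0.04 and -0.0034 on the log2 scale in HFCD+FMD replicates 1 and 2, inside the control range of -0.11 to 0.17, and at -0.28 and -0.46 in replicates 3 and 5, the libraries with the large mitochondrial share. Without those 2 libraries, an alternative chosen after seeing the data, the median log2 fold change was -0.03. The 2 glucose transporters were the genes of this list without overlap, beside 4.47% of all genes below every control. Slc2a4, the insulin-responsive GLUT4, had 343 to 425 CPM in controls and 165 to 305 CPM in HFCD+FMD hearts (log2 value -0.71, adjusted p = 0.0912), with the lowest levels in replicates 3 and 5. Slc2a1, the basal transporter GLUT1, had 15.2 to 18.6 and 11.2 to 13.1 CPM (-0.53, adjusted p = 0.0557). Of 8 genes of ketone use 0 were called. Bdh1, which interconverts ketone bodies, had a log2 value of -0.06.

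The fasting-responsive targets of PPAR were not called either, apart from Cidec among 20 tested, and the median was -0.05. Of all genes, 0.267% were called lower. Pdk4, the kinase that shuts glucose carbon out of the tricarboxylic acid cycle, had 238 to 1193 CPM in controls and 375 to 522 CPM in HFCD+FMD hearts (adjusted p = 0.325). Angptl4, Ucp3 and Acot1 had log2 values of -1.01, -0.70 and -0.06. Of 23 genes of lipid synthesis 0 were called, and Fasn and Scd1, which make fatty acids and desaturate them, had values of -0.85 and -1.17 (adjusted p of 0.122 and 0.152). Of the 27 genes of pyruvate entry and the tricarboxylic acid cycle 0 were called, with a median of 0.03.

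Respiratory chain genes of the 2 genomes had opposite signs without a call. Of 7 mitochondrially encoded genes tested 6 had positive values and the median was 1.41, while of 70 nuclear subunits 61 had negative values and the median was -0.31. Within set B, where mitochondrial shares were 21.8%, 28.98% and 30.1%, the medians were 0.34 and 0.01. mt-Nd5, a subunit of complex I, was the 1 mitochondrial gene without overlap, at a log2 value of 2.21 (adjusted p = 0.0536). Of all genes, 4.34% lay above every control without overlap. Genes of the mitochondrial ribosome (40 tested), the cytosolic ribosome (51) and the proteasome (31) had 0 calls and medians of -0.24, -0.37 and -0.09, and 0.09, 0.06 and 0.05 within set B. Control replicate 2 stood above the other controls in these nuclear-encoded lists. Relative to the control mean, the median nuclear respiratory subunit stood at 0.77 on the log2 scale in control replicate 2, at -0.31 to 0.07 in the other controls and at -0.43 to -0.05 in HFCD+FMD hearts, so that 3 of the 4 HFCD+FMD hearts lay inside the range of the other controls. In that library the mitochondrial and cytosolic ribosome lists stood at 0.54 and 0.59. Without it the median log2 fold changes were -0.09 for the nuclear subunits, -0.12 and -0.17 for the ribosome lists and -0.0074 for the proteasome. The part of the mitochondrial share in these values was not tested beyond the fit that used it as a covariate, in which 0 genes were called.

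**Figure D5:**
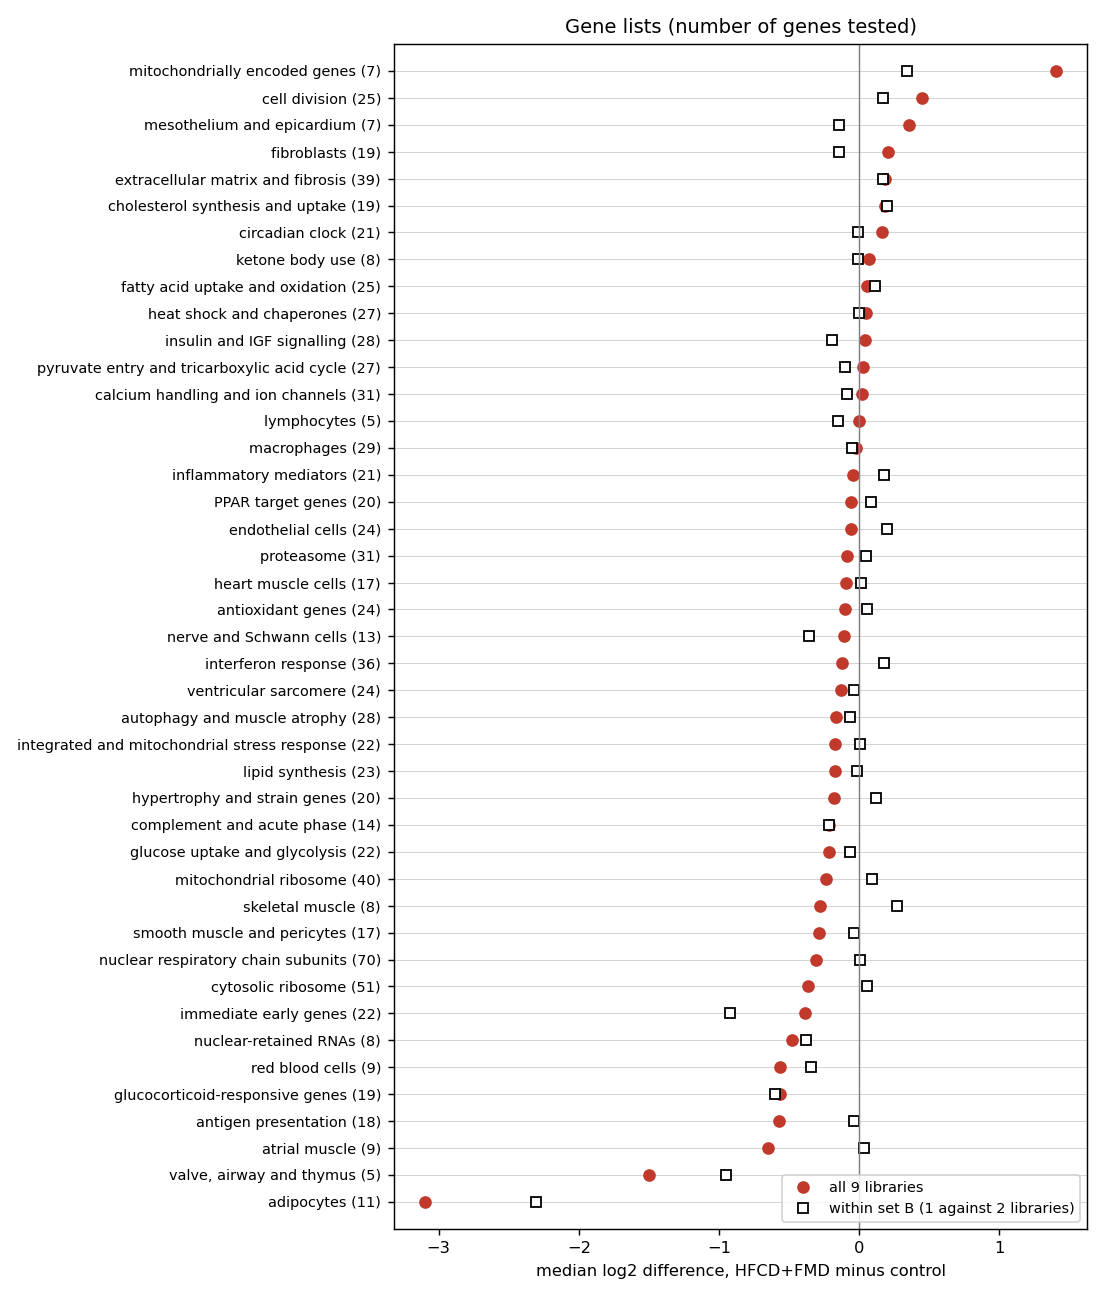
Median log2 difference between HFCD+FMD and control hearts for each gene list with at least 5 genes tested: filled circles for all 9 libraries, open squares within set B (1 against 2 libraries). Adipocyte genes have the lowest median, -3.10, and mitochondrially encoded genes the highest, 1.41.

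No gene of the contractile apparatus or of cardiac strain was called. Of 24 ventricular sarcomere genes and 20 hypertrophy and strain genes tested 0 passed, with medians of -0.13 and -0.18. Myh6, the adult myosin heavy chain, had a log2 value of 0.11, and Myh7, the fetal form, -0.33. Control replicate 5 stood apart in several strain genes, with 545 CPM of Myh7 and 1338 CPM of Ankrd1 against at most 82.7 and 497 CPM in the other controls, so that the log2 value of Myh7 was 1.21 without it. The natriuretic peptide genes Nppa and Nppb had values of -1.32 and 0.16, Ankrd1 -0.68 and Acta1 -0.45, with adjusted p-values from 0.214 to 0.844.

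Clock, hormone-response and proteolysis genes had values without overlap but no call. Of 21 circadian genes 4 lay higher and 1 lower in all 4 HFCD+FMD hearts than in any control, beside 4.34% and 4.47% of all genes. The 4 were Per2, Per3, Bhlhe41 and Wee1, with log2 values of 0.59, 0.44, 0.86 and 0.81 and adjusted p-values from 0.0525 to 0.122. The core activator Arntl, and Nr1d1 and Dbp, had values of -0.97, 0.16 and -0.02. Arntl was not the 1 gene below every control. Its groups overlapped, at 4.54 to 10.2 CPM in controls and 2.38 to 6.73 CPM in HFCD+FMD hearts (adjusted p = 0.132 in edgeR). The time of day of collection is not in the labels. Of 19 glucocorticoid-responsive genes 16 had negative values, with a median of -0.56, and -0.60 within set B. Cebpb and Cebpd were those without overlap (-0.78 and -0.89, adjusted p = 0.0557 and 0.0693), and Fkbp5, the classical glucocorticoid target, had -0.56 (adjusted p = 0.317). Of 28 genes of autophagy and muscle atrophy 0 were called, 9 had positive and 19 negative values. The median was -0.16, and -0.06 within set B. Without overlap, 1 lay above and 4 below every control, beside 4.34% and 4.47% of all genes. Among the 4, Trim63, a muscle ubiquitin ligase, had 116 to 155 CPM in controls and 85.6 to 102 CPM in HFCD+FMD hearts. Gabarapl1, an autophagosome protein, had 104 to 135 and 73.4 to 84.2 CPM. Their adjusted p-values were 0.0693 and 0.0591.

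Red cell genes, which mark blood in the tissue, had mostly negative values without a call. Of 9 tested 8 were negative with a median of -0.56, and their summed level was 397 to 1153 CPM in controls and 194 to 394 CPM in HFCD+FMD hearts. Beta-globin Hbb-bs had 244 to 784 and 115 to 240 CPM (adjusted p = 0.152). The markers of lymphocytes (5 tested of 26), neutrophils (4 of 12), endothelial cells (24), smooth muscle and pericytes (17), nerve and Schwann cells (13) and skeletal muscle (8) had 0 calls.

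The same diets were compared in adipose tissue of this study, with 6 HFCD+FMD and 3 control libraries. The labels name no mouse, so whether heart and adipose libraries share mice is not known, and they were fitted as independent. In a joint fit of 12606 genes the difference between diets differed between heart and adipose tissue for 1949 genes, 15.5%. Of 111 genes called in heart and present in the joint fit, 58 had such a difference. The 111 were chosen by their heart difference in these same libraries and include set C copies such as Vcp-rs. The 58 therefore cannot show that the calls are particular to heart. For Tfrc the log2 fold change was 2.56 in heart and 0.39 in adipose tissue, a difference of 2.17 with SE 0.48 (adjusted p = 0.0108 in edgeR). Apoe had values of -1.24 and 0.997, which differed by -2.23 (adjusted p = 0.00102 in edgeR), and Hcn2 values of -0.90 and 1.198, which differed by -2.09 (adjusted p = 0.00307 in edgeR). The count of genes was 678 without adipose control replicate 1, 782 without adipose control replicate 3, 794 and 883 without heart HFCD+FMD replicates 3 and 5, and 1255 without heart control replicate 5.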

How the data were processed

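The files were gene tables of heart and adipose RNA-seq. STAR 2.5.3, the build mm10, and limma and edgeR in R 3.5.3 are named in the submitters' processing notes; ribosomal RNA was depleted per the labels' protocols, and the counting program and strand setting are not given in the sources used here. The deposited heart and adipose tables hold raw counts per gene, and the deposited heart log2 CPM values had a term per library set removed by the authors, whose name for the table says that batch was taken out. Each set's term agreed within 9.81e-09 between its libraries.

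Counts were tested in edgeR 4.0.16 with TMM scaling, filterByExpr, a robust quasi-likelihood fit of diet on 9 libraries and Benjamini-Hochberg adjustment at 0.05. Of 13238 genes 13123 were tested. SE is the log2 fold change over the root of F. The fit was tested on simulated data. Library shares used exact permutation. Alternatives were scaling, filters, DESeq2, limma voom, covariates, library sets and left-out libraries. Matches of copies used blastn. Members and 46 gene lists were chosen with earlier results of these data known; 1 list, of replication-dependent histones, matched 0 of 21 symbols, and of 5 sex-linked genes 1 was in the table.

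Named genes were the 15 largest rises and falls among called genes with a mean of at least 1 CPM and no predicted, clone or pseudogene-type symbol, up to 4 called members of each list, and 31 genes reported whatever their result (all tested, 0 called), of which 1 is not reported here. Of the genes named, 68 follow this rule; 21 others were chosen after their values were seen. No gene set test was run.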

Additional observations from a re-analysis of the deposited data

Results flagged for a closer look

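Results of 2 kinds were picked out for a second look. The first is a library far from the others of its group, by a gap to its nearest neighbour that Dixon's 95% limit does not allow. Of 186 groups of values tested 16 had such a library, and chance gives about 1 in 20 groups, or 9.3. Control replicate 5 was high in Slc1a2 (0.846 CPM), Chac1 (7.90 CPM), Postn (93.9 CPM), Ankrd1 (1338 CPM) and Myh7 (545 CPM). Control replicate 2 was high in Hbb-bs (784 CPM), Aldoa (2549 CPM) and the share of pseudogene counts (0.0590%), and low in Cpt1b (7.71 CPM). Control replicate 4 was high in Rpl37rt (1.03 CPM), and control replicate 6 was low in Nppb (18.2 CPM). HFCD+FMD replicate 3 was high in Kcnq5 (2.59 CPM) and Adipoq (0.345 CPM) and low in Chac1 (2.42 CPM). HFCD+FMD replicate 2 was high in Csl (11.0 CPM) and low in Gabarapl1 (73.4 CPM).

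The second kind is a gene whose difference between HFCD+FMD and control differed between heart and adipose tissue at an adjusted p below 0.05 in edgeR's joint fit. Differences are given as heart minus adipose tissue on the log2 scale. Positive values were found for the iron and heme genes Tfrc (2.17) and Alas1 (0.86), for Pzp (5.50), Mme (1.49), Il33 (1.88), Slc1a2 (3.27), Kcnq5 (1.89) and Aldh1a2 (2.09), for the gene copies Vcp-rs (3.69) and Rpl37rt (3.35), and for mt-Nd5 (4.50). Negative values were found for the adipocyte genes Cidec (-3.97), Adipoq (-2.74) and Plin1 (-3.35), for Apoe (-2.23), Col5a3 (-1.77), Stum (-1.60), Abat (-2.45), Cntfr (-2.60), Ramp1 (-2.36), Tmem140 (-1.02) and Hcn2 (-2.09), and for Slc2a1 (-0.87) and Cebpb (-1.06). The adjusted p-values ran from 0.000642 for Cntfr to 0.0487 for Stum. The tissues were sequenced as separate tables, so tissue and table cannot be told apart.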

How the results depend on the processing

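The counts of genes higher and lower changed with most settings. They were 498 and 406 with DESeq2, 1 and 1 with voom, 122 and 73 with voom quality weights, 265 and 75 without the filter, 34 and 9 with at least 1 CPM in 4 libraries, 221 and 35 in sets A and C alone, 0 and 3 with all 14 heart libraries and set as a factor, 101 and 27 without mitochondrially encoded genes, 83 and 18 with age as a covariate, 464 and 570 on the deposited log2 values, and 13 and 6 without pseudogenes. Both counts were 0 with set as a factor, with 14 libraries and no set, with the mitochondrial share as a covariate, and without HFCD+FMD replicates 3 and 5 or without the set C libraries, the last 2 and the pseudogene setting chosen after seeing the data. Those fits had 244, 2914, 1014, 926 and 327 genes at an unadjusted p below 0.05. RLE scaling gave 140 and 39. The deposited log2 values had a set term removed beforehand, and the fit on them held diet alone. Its p-values therefore do not allow for that term, and 127 of the 172 calls kept their sign there. Leaving out 1 library gave 0 to 507 and 0 to 326. The difference in mitochondrial share ran from 13.1 to 23.98 percentage points when 1 library was left out (two-sided exact permutation p of 0.0286 to 0.143), and the tissue difference from 678 to 2638 genes. The cause was not tested. No paired analysis was possible because replicate numbers follow accession order and the labels name no mouse; the labelled ages of same-numbered HFCD+FMD heart and adipose libraries are equal, which leaves it unknown whether the tissues share mice.

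Of the log2 fold changes of named genes under the alternatives, 1476 kept direction and side of the threshold, 651 lost the call, 93 gained it and 73 changed sign. Sign changes by setting were as follows. Set as a factor gave -0.72 for Rpl37rt, -1.03 for Csnk2a3, -0.14 for Pln, 0.77 for Acta1, -0.28 for Myh6, -0.23 for Nr1d1, 0.99 for Myh7, -0.13 for Cpt1a, 0.48 for Acot1, 0.36 for Dbp and -0.20 for Atp2a2. With 14 libraries and set as a factor they were -0.60 for Rpl37rt, -0.0090 for Cd68, 1.43 for Acta1, -0.0022 for Nr1d1, 0.29 for Bdh1, 0.18 for Myh7, -0.38 for Nppb, -0.35 for Cpt1a and 0.88 for Dbp. The deposited log2 values gave -0.53 for Rpl37rt, -0.068 for Cd68, 1.49 for Acta1, -0.085 for Nr1d1, 0.29 for Bdh1, 0.55 for Myh7, -0.16 for Nppb, -0.33 for Cpt1a and 0.89 for Dbp. Without set C they were -0.40 for Rpl37rt, -0.69 for Csnk2a3, -0.074 for Pln, -0.14 for Myh6, -0.42 for Nr1d1, -0.24 for Nppb, 0.73 for Acot1 and 0.15 for Dbp. Without HFCD+FMD replicates 3 and 5 they were -0.023 for Pln, -0.057 for Myh6, -0.47 for Nr1d1, 0.44 for Acot1 and 0.053 for Dbp. The mitochondrial covariate gave -0.015 for Pln, -0.066 for Myh6, -0.56 for Nr1d1 and 0.31 for Acot1. Age gave -0.00868 for Cpt1a, 0.063 for Dbp and -0.024 for Atp2a2. Voom gave 0.65 for Myh7, 0.055 for Acot1 and 0.00878 for Dbp, and quality weights 0.66 for Acot1, 0.18 for Dbp and -0.074 for Atp2a2. With 1 library left out, values ran from -0.17 to 0.33 for Nr1d1, -0.61 to 1.21 for Myh7, -0.27 to 0.40 for Nppb, -0.044 to 0.148 for Cpt1a, -0.45 to 0.30 for Acot1, -0.11 to 0.18 for Dbp and -0.15 to 0.10 for Atp2a2. Depth was not tested as a limit; Cidec had no counts in 2 HFCD+FMD libraries.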
